A study of Mus musculus with 21 samples.

Results

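The genes described here are those of the cytosolic ribosomal proteins of the mouse, taken by symbol: protein-coding genes named Rpl or Rps with a number, together with Rplp0, Rplp1, Rplp2 and Rpsa. Symbols of ribosomal protein kinases (10 genes) and symbols ending in -ps and a number, which mark pseudogenes (9 genes), were left out. This gave 86 genes of 31053 in the count tables, called members below. They comprised 33 proteins of the small subunit and 52 of the large subunit. The remaining member, Rps19bp1, encodes a protein that binds Rps19 and is not itself a subunit.

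All 21 libraries came from E14Tg2a, embryonic stem cells of a male 129 mouse with a destabilised green fluorescent protein knocked into 1 Rex1 (Zfp42) allele. The study sampled cells at zero passage and after longer culture in different media. The labels gave 7 groups of 3 replicates: 2i+LIF PO, 2i+LIF LP, CH+LIF LP, LIF LP, 2i+LIF HP, CH+LIF HP and LIF HP. CH stands for CHIR99021, which inhibits GSK3, and 2i commonly means CHIR99021 together with PD0325901, which inhibits MEK. The cytokine LIF signals through STAT3. All groups share the cell line, the reporter allele and, by the growth protocol, a starting culture with both inhibitors in serum-free medium. Because PO occurs only with 2i+LIF, it was taken to be the zero-passage sample. The labels do not tie LP or HP to a length of culture, so the names are kept. All cells are of this 1 line, and nothing in the labels says that replicates were separate cultures, so the p-values measure the spread between these libraries, which may be technical.

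A ribosome joins a small subunit, which reads the mRNA, to a large subunit, which forms the peptide bonds, and most ribosomal proteins are needed in equal number in each particle. Their mRNAs are among the most abundant of a growing cell. In mammals many of them start at a C followed by an unbroken run of pyrimidines, the terminal oligopyrimidine tract, through which mTORC1 and the RNA-binding protein LARP1 control their translation and stability. In embryonic stem cells, ribosome production is known to be high and to respond to Myc, mTOR and the growth medium. Ribosomal protein genes have also seeded many processed pseudogenes, near-identical copies elsewhere in the genome, which matters for counts that keep only uniquely aligned reads.

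Promoter sequences (250 bases before to 50 after each start, RefSeq, GRCm38.p6) were found for 66 of the 86 members. On the transcribed strand, within 50 bases either side of the start, 53 of these 66 (80.3%) held a run of 8 or more C or T that begins with C, against 32% of 27025 genes. On the other strand the same run occurred in 14 members (21.2%), against 34.4% of all genes. The following windows of at most 30 bases are shown because the values below turn on these genes. Capitals mark the pyrimidine run. In Rpl41, Rps2 and Rps23 it begins at base 41, 41 and 36 of the transcript as annotated and reaches the end of the 50 bases held, so its length there is a minimum.

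Rpl34 (chr3:130730330-130730359, minus strand): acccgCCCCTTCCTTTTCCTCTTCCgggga
Rpl41 (chr10:128549119-128549138, minus strand): tagcagtaggCCTCCCTCTC
Rps23 (chr13:90923150-90923171, plus strand): tcctgcaCCTCCTCTCTCTTTC
Rps2 (chr17:24720093-24720112, plus strand): ttccgcggcgCCTCCCTCTT
Rpl15 (chr14:18270967-18270996, minus strand): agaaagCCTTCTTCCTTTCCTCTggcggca
Rpl27a (chr7:109519186-109519215, plus strand): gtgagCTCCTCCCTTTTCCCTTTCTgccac
Rps27 (chr3:90213631-90213660, minus strand): tccgctttcgCTCCTTTCCggcggtgacga

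The longest runs printed, of 20 bases, belonged to Rpl34 and Rpl27a. The run was not found in the windows of 13 matched members, among them Rpl7l1, Rps19bp1, Rps27rt, Rps3a1, Rps4x and Rpsa. The letters CTTTCC, which overlap such runs, stood on the transcribed strand of 21 members (31.8%), against 5.43% of all genes, and on the other strand of 2 (3.03%), against 5.12%. CCGGAA, searched on both strands of the whole 300 bases, was present in 36 members (54.5%) and in 16.7% of all genes. CACGTG occurred in 6 members (9.09%) and 8.09% of all genes. These are matches of letters, not sites of binding.

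Members also share much of their mRNA with other genes. In the median member, 55.5% of the 50-base stretches of its transcript also occurred in the transcript of another gene, and 47 of 86 members shared over 50%. Members with a share of 0 included Rpl39l, Rpl3l and Rps19bp1. Rps2 shared 76.8% with transcripts of 71 other genes, Rpl7a 81.2% with 120, Rpl15 75.2%, Rps6 84.6%, Rps20 7.44% and Rpl7l1 12.2%. Rps27 (98.6%) and Rps27rt (91.1%), an intronless copy at chr9:114982366-114982739 that overlaps Osbpl10, were identical over all 252 coding bases. Reads that matched several places did not enter the gene counts, so levels of different members are not comparable. Comparisons below are of 1 gene, or of sums over the same members, between groups. Such sums weigh members by their counted reads: Rps20, Rps12 and Rps14 made up 21.0% of the mean summed CPM.

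Depth ran from 1132126 to 3783043 gene counts per library. Of the 86 members, 84 passed the filter on low counts; Rpl3l, with 93 counts over all libraries, and Rpl29, with 110, did not. Rpl3l is known from striated muscle. A pair of libraries stood apart: 2i+LIF PO replicate 1 had 39.1% mitochondrial counts, and 2i+LIF LP replicate 1 had 31.7% of its counts on Gm42418, a gene that overlaps ribosomal RNA. All 8 pluripotency markers had counts in every group (summed 1334 to 3808 CPM). CPM here are counts over library sizes scaled by TMM, so that the bulk of genes is level between libraries. Summed markers of primitive endoderm, fibroblasts and 2-cell-like cells stayed at or under 36.35 CPM, and 5 neural markers summed to 34.5 to 253.2 CPM. In bulk libraries, fewer cells of a type and less RNA per cell cannot be told apart. The PO libraries came from another sequencing run by their file names, so run and PO cannot be told apart.

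The members' percent of gene counts was highest in LIF HP. It was 20.3, 26.7 and 29.5 in the LIF HP libraries and 9.43, 12.2 and 13.7 in LIF LP. For HP it was 10.3, 19.9 and 20.2 with 2i+LIF and 18.0, 18.4 and 12.4 with CH+LIF. It was 5.29, 13.4 and 13.3 in 2i+LIF LP, 12.5, 15.8 and 16.1 in CH+LIF LP, and 3.36, 17.8 and 13.1 in 2i+LIF PO. By this percent each LIF HP library stood above every library of the other groups, though by little in replicate 1 (20.3 against 20.2 in 2i+LIF HP replicate 3). Replicate 1 was not above that library in summed CPM, at 212292 against 218935, or in percent without mitochondrial and Gm42418 counts, at 22.9 against 23.0. The lowest values of PO and of 2i+LIF LP belonged to the libraries that stood apart. The summed level of the members was 326582 ± 120661 CPM in LIF HP (SD, n = 3) and 103045 ± 24074 CPM in LIF LP (SD, n = 3). The larger contrast in CPM than in percent goes with the scaling, which divided LIF HP replicate 3 by a library size 0.653 times its total.

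**Figure D1:**
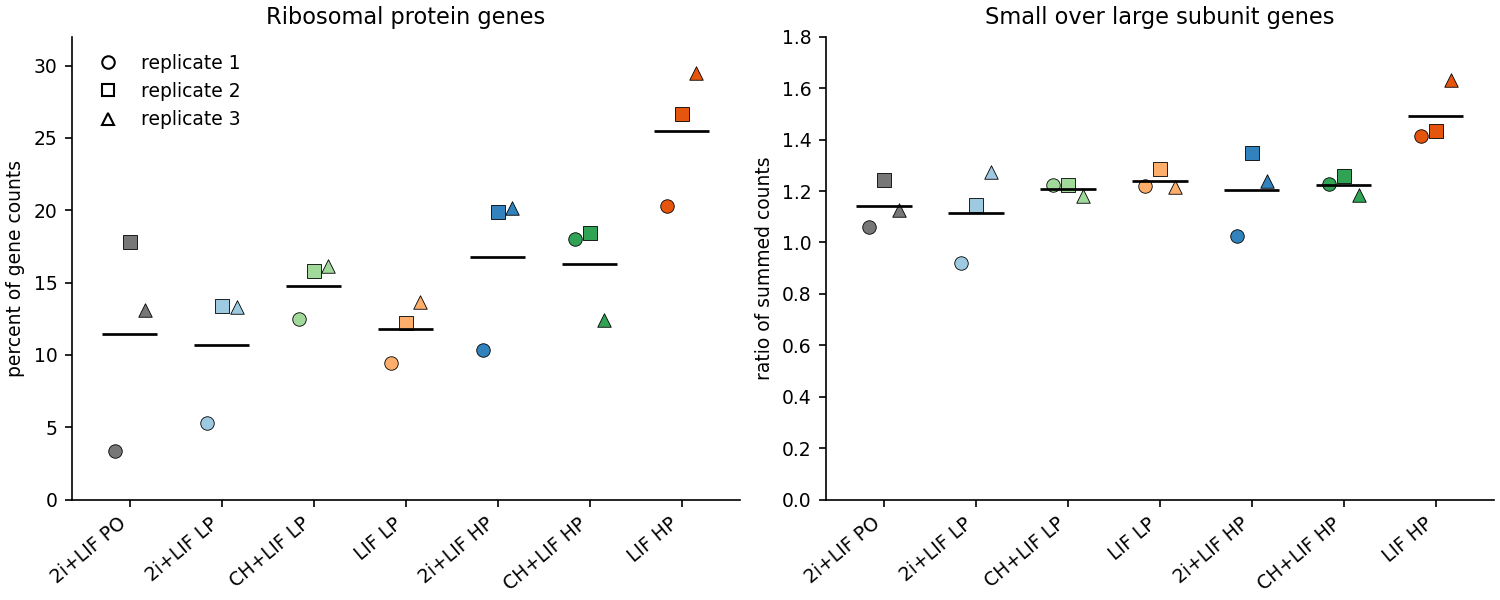
Left, summed counts of the 86 members as percent of all gene counts, 1 point per library, by group; right, the ratio of small-subunit to large-subunit counts in the same libraries. The LIF HP libraries sit at 20.3, 26.7 and 29.5%, above all others, and their subunit ratios of 1.42, 1.43 and 1.63 lie above the range of 0.921 to 1.35 of the other libraries.

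The ratio of summed small-subunit to large-subunit counts was higher in LIF HP than in the other groups. It was 1.42, 1.43 and 1.63 in LIF HP, against 0.921 (2i+LIF LP replicate 1) to 1.35 (2i+LIF HP replicate 2) elsewhere, with no overlap. Only uniquely aligned reads enter this ratio, and the coding-length trend described below was not taken out of it. Gene by gene, LIF HP was the group with the highest mean for 73 of 84 members. PO was highest for 7, 2i+LIF HP for 2, and 2i+LIF LP and LIF LP for 1 each. The lowest group was 2i+LIF LP for 36 members, LIF LP for 25, PO for 20 and 2i+LIF HP for 3. CH+LIF LP and CH+LIF HP were at neither end for any member.

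**Figure D2:**
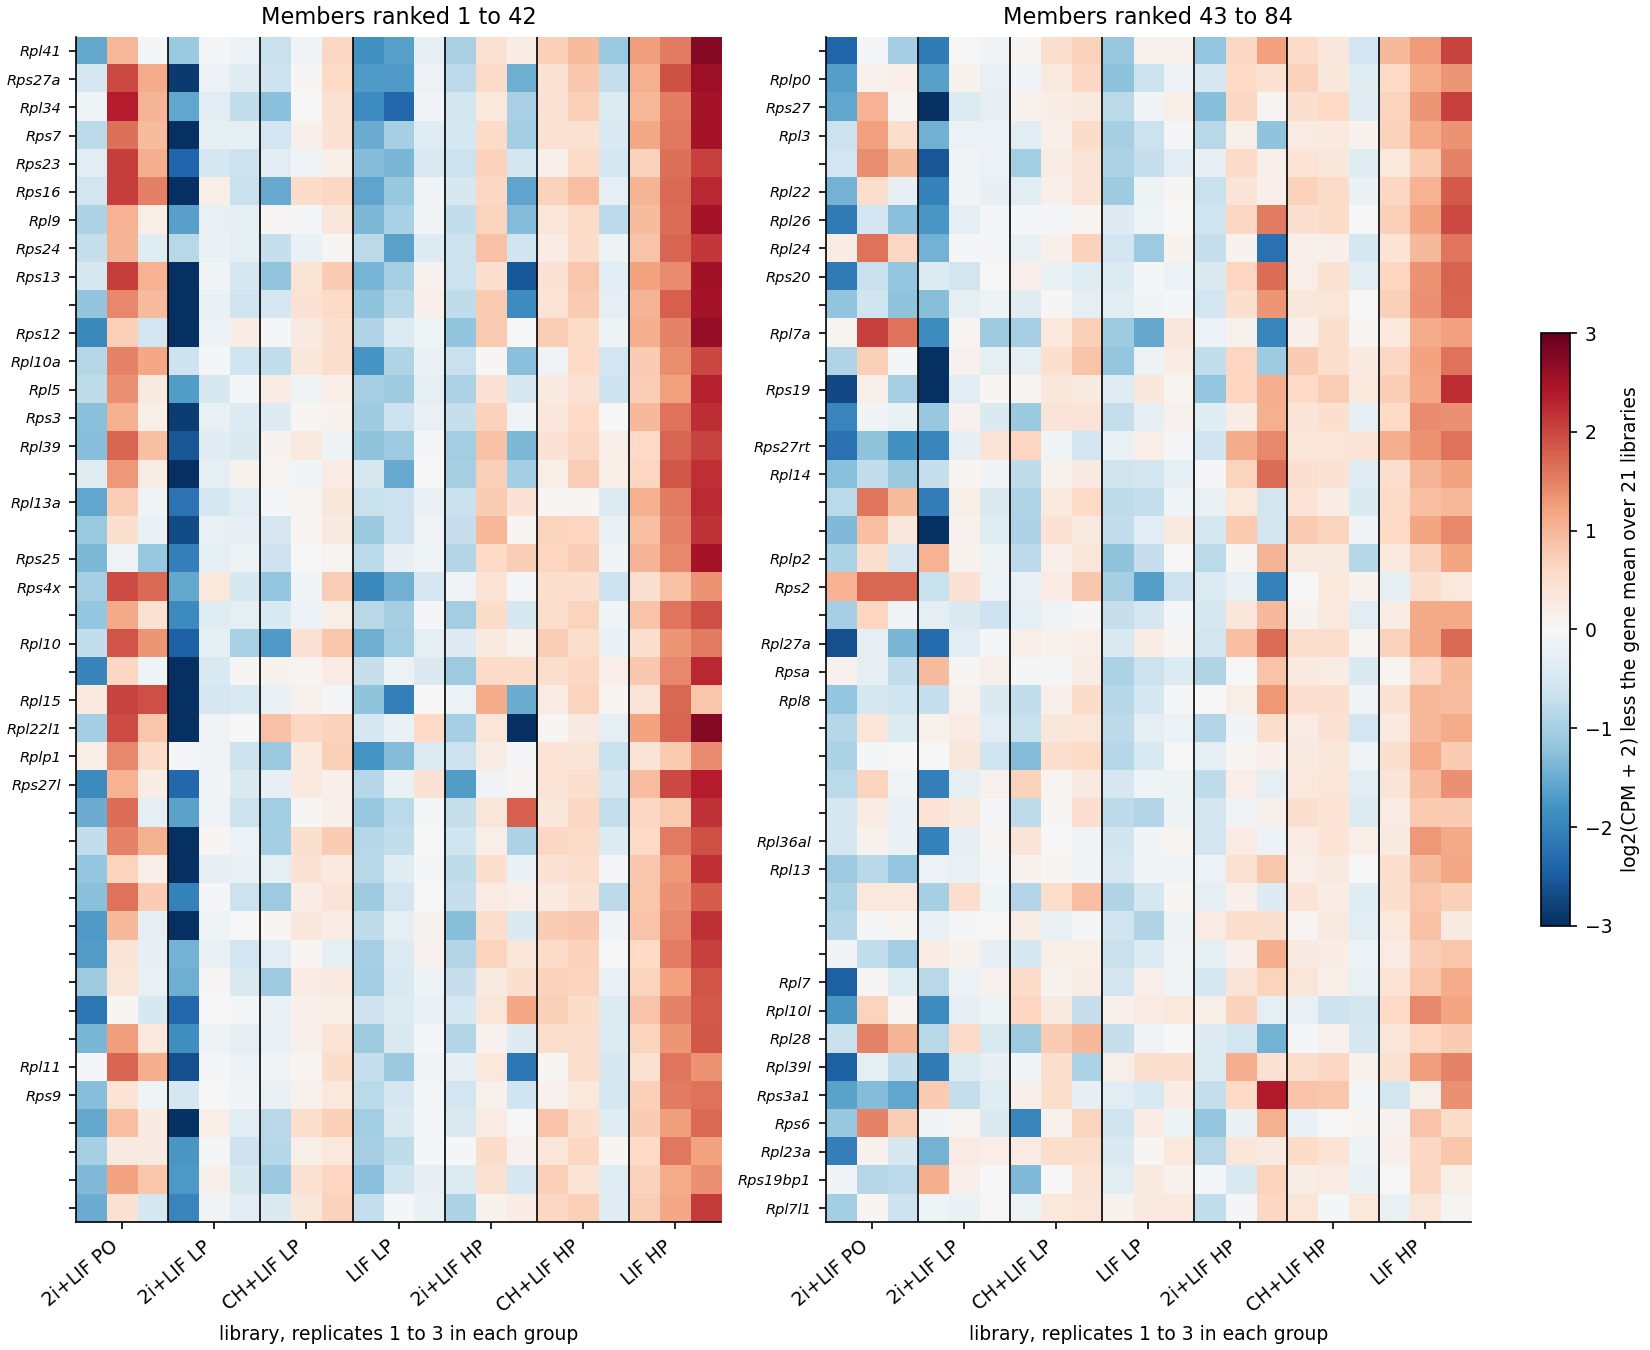
Level of the 84 tested members in the 21 libraries (columns, by group), as log2 of CPM + 2, centred on each gene's mean. Each member has 1 line, ordered by its change from LIF LP to LIF HP, with names for those in the text. The LIF HP columns are high for most members, and 2i+LIF LP replicate 1 holds the lowest CPM of 46 members.

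Within LIF medium, 43 of 84 members were higher in HP than in LP and 0 were lower (edgeR quasi-likelihood test over all 21 libraries, Benjamini-Hochberg adjusted p under 0.05 over 10643 genes). Of all genes tested, 9.96% were called, 5.33% as higher. The median log2 fold change was 1.71 for the members and 0.01 for all genes, and 83 members had a positive change. In 77 members every LIF HP library exceeded every LIF LP library, as it did for 20.1% of all genes. The count rests on few libraries: it was 6 without LIF HP replicate 3, 7 without LIF LP replicate 1, 9 without LIF LP replicate 2 and 16 without LIF HP replicate 2. Without both libraries that stood apart it was 77, and with library totals in place of TMM scaling 13, with no member lower in either. Here and below, shares of all genes belong to the main fits, so counts under alternatives cannot be set against them. Markers of other cell types moved with this comparison: 5 neural markers, 4 of them with counts, summed to 189.5 to 208.2 CPM in LIF LP and 88.07 to 144.8 CPM in LIF HP. The 6 fibroblast markers summed to 11.29 to 36.35 CPM in LIF LP, where Col3a1 and Dcn were at 0, and to 7.39 to 9.791 CPM in LIF HP, where Col1a2 and Postn were too. Neither pair of ranges overlapped, and their part in the result was not tested.

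The small subunit gave 18 of 33 higher members (median log2 fold change 1.83) and the large subunit 25 of 50 (1.59). Rpl41, the shortest ribosomal protein (chr10:128548114-128549305, minus strand), rose most. Its level was 299.1, 336.6 and 859 CPM in LIF LP and 2504, 3121 and 6994 CPM in LIF HP. The groups did not overlap, and the log2 fold change was 3.08 (SE 0.64, edgeR adjusted p = 0.003712). Rps27a (chr11:29545846-29548109, minus strand, overlapping Clhc1) encodes a small-subunit protein fused to ubiquitin, which is cut off after translation. It stood at 176.3, 174 and 504.5 CPM in LIF LP and at 1200, 2154 and 3412 CPM in LIF HP, a log2 fold change of 2.98 (SE 0.69, edgeR adjusted p = 0.008259). Rpl34 of the large subunit (chr3:130726831-130730398, minus strand), whose pyrimidine run is printed above, moved from 36.9, 25.89 and 133.7 CPM to 283.9, 411.4 and 808.8 CPM. Its log2 fold change was 2.92 (SE 0.63, edgeR adjusted p = 0.005097). In all 3 genes LIF LP replicate 3 was the highest of its group and LIF HP replicate 3 of its own. Rpl41 and Rpl34 kept their calls under all 32 alternatives tried, and Rps27a under 30.

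Several further small-subunit genes changed by more than the common median. Rps7, which also binds Mdm2, read 236.3, 332.6 and 517.5 CPM in LIF LP and 1471, 1971 and 3735 CPM in LIF HP (log2 fold change 2.72). Rps23, which lies at the decoding centre, read 168.5, 160.7 and 307.8 CPM, then 682.8, 1318 and 1751 CPM (2.56). Rps12, in the head of the subunit, read 3627, 5092 and 6190 CPM, then 14550, 19160 and 42010 CPM (2.34). In these 3 genes the lowest LIF HP library stood above the highest LIF LP library, and all 3 were called. Rps3, which lies at the mRNA entry channel, had means of 1040 and 5102 CPM (2.29) and was called, as was Rps24 with means of 2146 and 12270 CPM (2.52). Rps20, another protein of the head, did not pass: it read 9283, 11790 and 11000 CPM in LIF LP and 19340, 31310 and 41880 CPM in LIF HP, a log2 fold change of 1.53 (SE 0.51, edgeR adjusted p = 0.05577).

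Among large-subunit genes, Rpl5 and Rpl11 encode the partners that bind the smallest ribosomal RNA and, when free, Mdm2. Rpl5 read 190.6, 182.6 and 318.4 CPM in LIF LP and 643.6, 905.9 and 1919 CPM in LIF HP (log2 fold change 2.32), and Rpl11 80.42, 60.42 and 122.2 CPM, then 181.4, 406.5 and 341 CPM (1.82). Both were called. Rplp0, Rplp1 and Rplp2 form the stalk that recruits translation factors. Rplp1 was called with means of 460.8 and 1835 CPM (1.99) and Rplp0 with 563.8 and 1802 CPM (1.68). Rplp2, with 2388 and 5916 CPM (1.31, edgeR adjusted p = 0.1044), was not. Rpl10, a protein that joins late in subunit assembly, was called with means of 51.15 and 216 CPM (2.07). Rpl3, near the peptidyl transferase centre, was called with 382.5 and 1160 CPM (1.60).

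**Figure D3:**
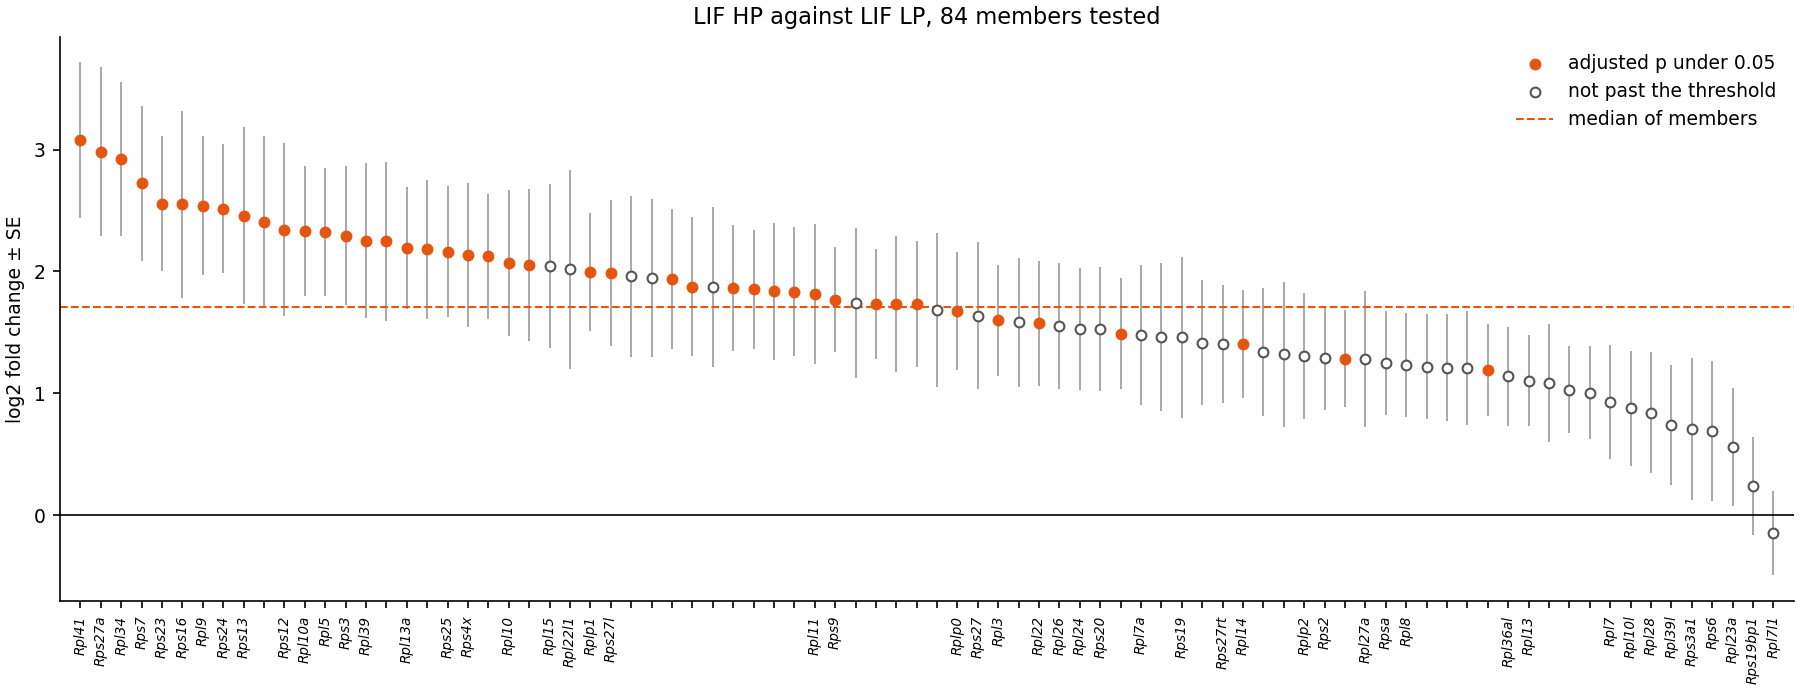
Log2 fold change of each of the 84 tested members in LIF HP against LIF LP, ranked, with its standard error from edgeR and names for those in the text; colours separate members past an adjusted p of 0.05 from the rest. Changes run from -0.15 for Rpl7l1 to 3.08 for Rpl41 around a median of 1.71.

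At the other end, 9 members had a log2 fold change under 1 and none of them was called by the main edgeR fit. Voom with quality weights called 78 of the 84 members, so some of these 9 passed there. Rpl7l1, a relative of Rpl7 located in the nucleolus, read 133.8, 153.4 and 153.4 CPM in LIF LP and 105.6, 160.1 and 131.9 CPM in LIF HP, overlapping ranges, with a log2 fold change of -0.15 (SE 0.34). Rps19bp1, which is no subunit, had 0.24 (SE 0.40). Rpl23a, at the exit of the peptide tunnel, read 2131, 3030 and 3631 CPM, then 3239, 4526 and 5201 CPM, again overlapping (0.56, SE 0.49). Rps6, the protein phosphorylated by S6 kinases, had 0.69 (SE 0.58) and means of 43.58 and 70.44 CPM. Rps3a1 had 0.70, Rpl39l 0.74, Rpl28 0.84, Rpl10l 0.88 and Rpl7 0.93. An adjusted p over the threshold does not show that these genes were level.

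Departures from the common shift were tested by fitting each gene's counts against the summed member counts of the library in place of its total. Against that sum, 45.6% of all genes passed the adjusted threshold in LIF HP against LIF LP, 45.1% as lower, since most genes fell relative to the members. The adjusted threshold is thus lenient here. Rpl41 took a larger share of the sum by 1.42 on the log2 scale (SE 0.45, edgeR adjusted p = 0.01622), Rps27a by 1.34 (SE 0.54, adjusted p = 0.04616) and Rpl34 by 1.31 (SE 0.53, adjusted p = 0.04655). Rpl7l1 fell by 1.76 (SE 0.46, adjusted p = 0.007279) and Rpl23a by 1.05 (SE 0.37, adjusted p = 0.02635). These 5 were the members past the adjusted threshold, and without LIF HP replicate 3 there were 0. Of 26 alternatives the call was lost in 15 for Rpl34, 12 for Rps27a, 6 for Rpl23a, 3 for Rpl41 and 1 for Rpl7l1. Among 84 members, 7 had an unadjusted p under 0.05, the others being Rps7 and Rps19bp1.

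**Figure D4:**
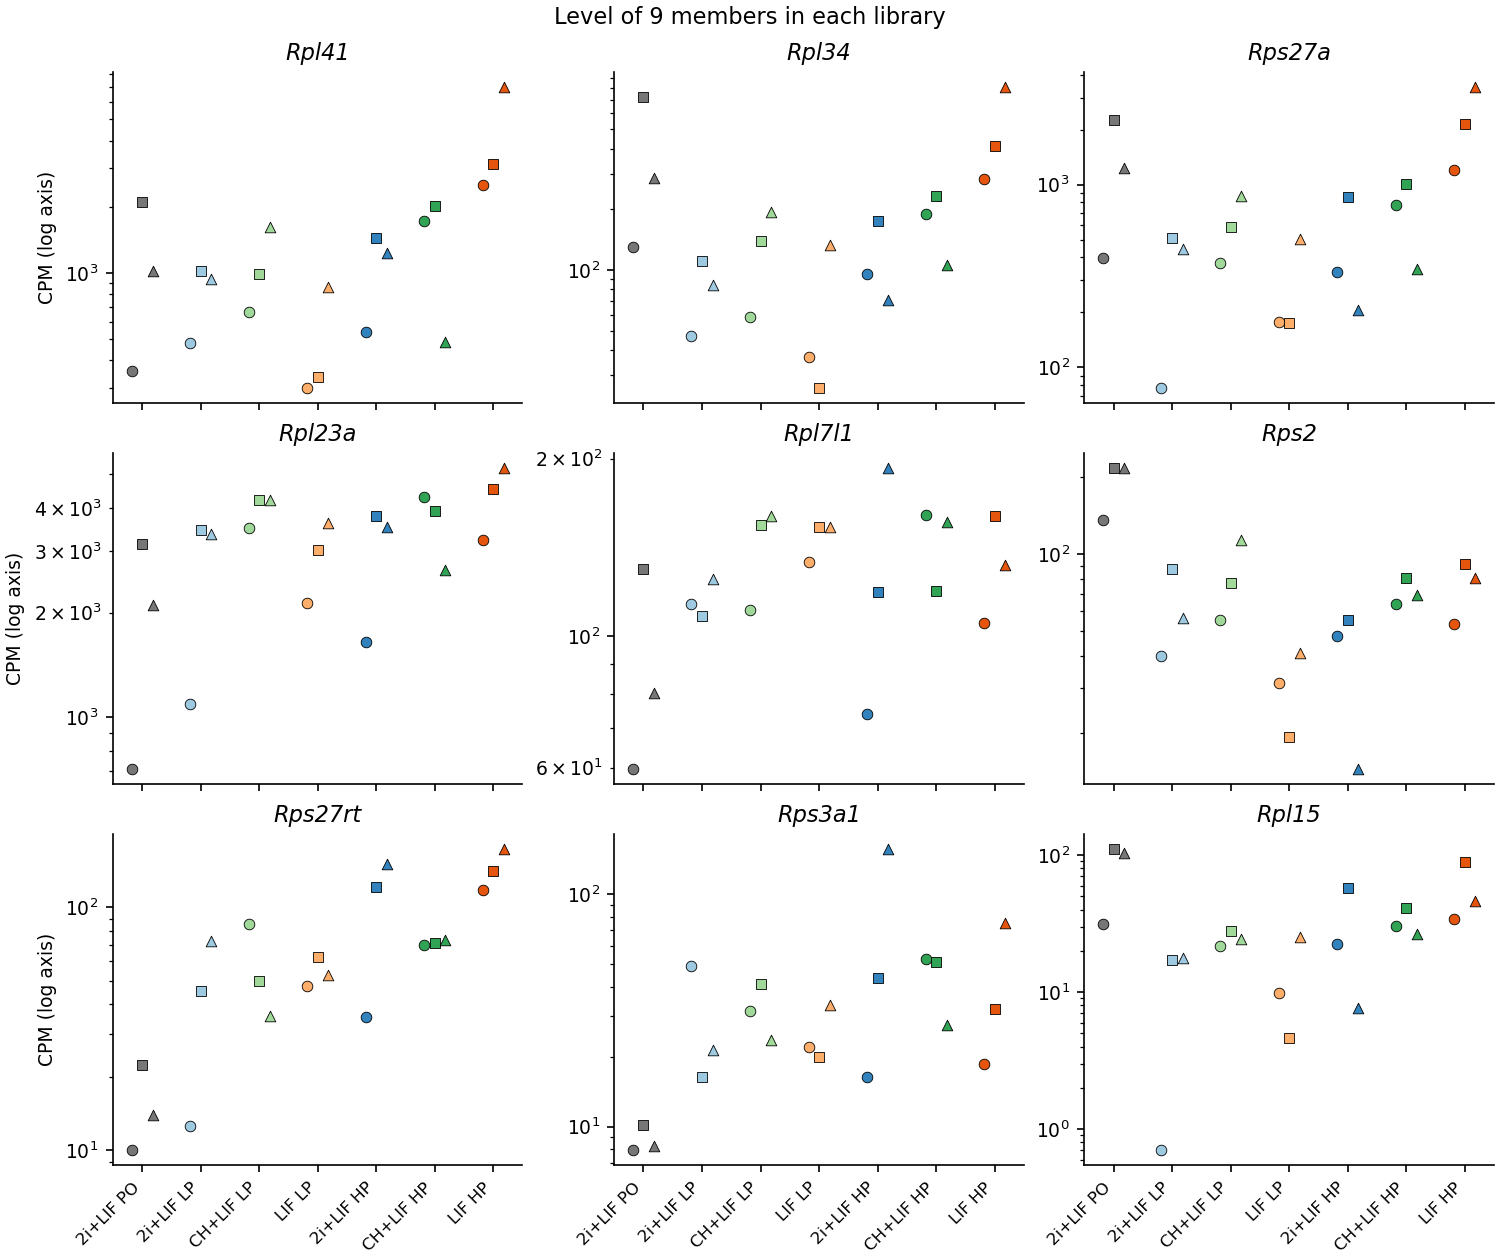
Level in CPM (log axis) of 9 members in each of the 21 libraries, by group: Rpl41, Rpl34, Rps27a, Rpl23a, Rpl7l1, Rps2, Rps27rt, Rps3a1 and Rpl15. Rpl41, Rpl34 and Rps27a are lowest in LIF LP libraries or in 2i+LIF LP replicate 1 and high in LIF HP, Rpl7l1 spans 59.62 to 192.6 CPM over all libraries, and Rps2 is highest in PO, where Rps3a1 is lowest and Rps27rt reads 10.02 to 22.49 CPM.

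Short genes as a class moved the same way. With tested protein-coding genes put into 4 classes of coding length, 77 members lay in the shortest class and 7 in the next. Among genes that are no members, the median log2 fold change of LIF HP against LIF LP was 0.58, 0.14, -0.14 and -0.46 from the shortest to the longest class, and 12.6% of the shortest class were called higher against 1.19% of the longest. With the trend over coding length taken out of each library, 18 members were called, the median was 0.95 and 80 members were positive. The same step lowered the members' median in LIF HP from 1.18 to 0.48 against 2i+LIF HP, from 0.98 to 0.46 against CH+LIF HP and from 1.12 to 0.38 against PO. The percent of alignments that were not unique also moved, at 30.3, 35.5 and 34.4 in LIF HP against 20.8 to 30.4 in the other libraries. So did the percent of entries assigned to no annotated gene, at 8.46 to 16.7 in LIF HP and 17.0 to 24.6 in LIF LP, with no overlap. The part of these in the result was not tested beyond this. Members with over 50% shared sequence and those with less had similar values: 24 of 46 higher with a median of 1.62, and 19 of 38 with 1.74.

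**Figure D5:**
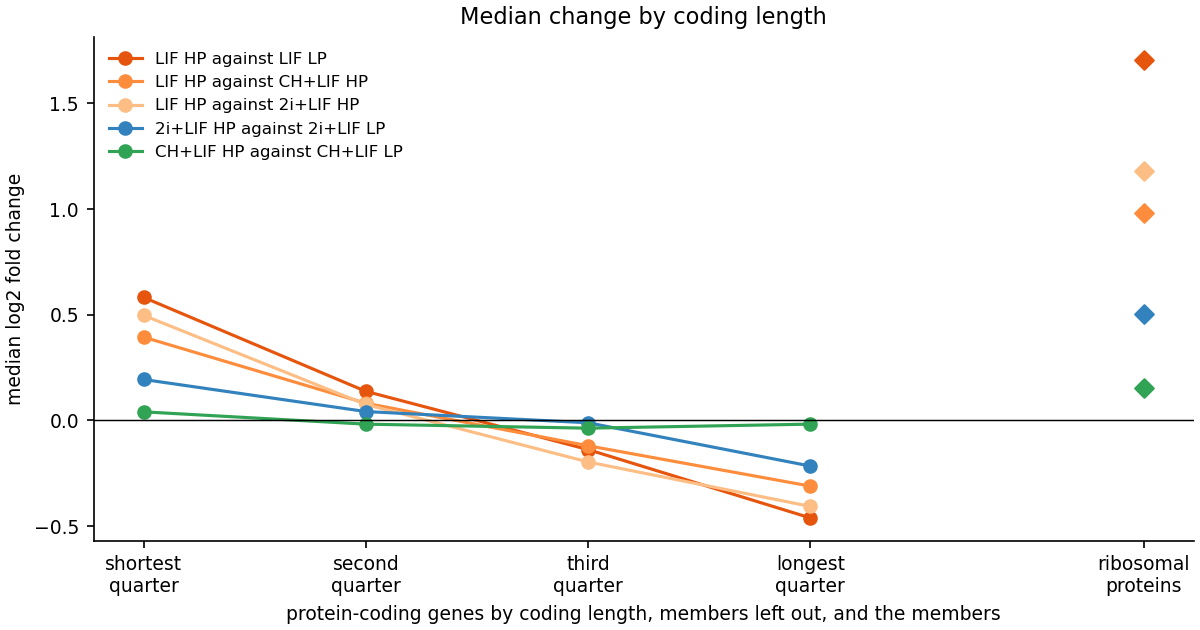
Median log2 fold change in 4 classes of coding length for genes that are no members, and for the members, in 5 comparisons. In LIF HP against LIF LP the class medians fall from 0.58 to -0.46, and the members' median of 1.71 lies above that of the shortest class.

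In the other media the main edgeR fit called no member between LP and HP. In 2i+LIF HP against 2i+LIF LP, 0 members were called by edgeR, 12 had an unadjusted p under 0.05, DESeq2 called 2, and 3.67% of all genes were called. The members' median log2 fold change was 0.50 there, and 0.18 without the libraries that stood apart or without 2i+LIF HP replicate 2. Rpl27a had the largest change, with means of 1161 and 3403 CPM (1.55, edgeR adjusted p = 0.1346). In CH+LIF HP against CH+LIF LP, 0 members were called, 0 had an unadjusted p under 0.05 with edgeR, DESeq2 also called 0, 0.0094% of all genes were called, and the median was 0.15, or -0.04 without CH+LIF LP replicate 1. The difference between media was tested directly, a test chosen after these counts were seen. The LIF change between LP and HP less the CH+LIF change had a median of 1.54 and was positive for 82 of 84 members. By edgeR 0 members passed the adjusted threshold (lowest adjusted p 0.1514), 41 had an unadjusted p under 0.05, and 0.423% of all genes were called. Less the change in 2i+LIF, the median was 1.19, with 80 positive, 23 at an unadjusted p under 0.05 and 0 past the adjusted threshold (0.15% of all genes). The change in CH+LIF less that in 2i+LIF had a median of -0.35, with 1 member at an unadjusted p under 0.05 and 0 past the adjusted threshold (0.0188% of all genes). For Rpl41 the change from LP to HP was 3.08 in LIF, 0.37 in CH+LIF and 0.39 in 2i+LIF, and the difference from CH+LIF was 2.71 (SE 0.85, edgeR adjusted p = 0.1943).

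Between media at HP, 7 members were higher in LIF than in 2i+LIF and 0 were lower, where 3.78% of all genes were called and 2.1% were higher. The median was 1.18, 47 members had an unadjusted p under 0.05, and the libraries of 47 did not overlap and were higher (14.6% of all genes). Rps27l, a relative of Rps27 that is a p53 target, read 66.92, 205 and 230 CPM with 2i+LIF and 416.4, 870.8 and 1140 CPM with LIF. Its log2 fold change was 2.28 (SE 0.61, edgeR adjusted p = 0.0333). Rpl34 had 2.13 (SE 0.61, adjusted p = 0.04823) and Rpl9 2.06 (SE 0.56, adjusted p = 0.03698). Of 32 alternatives the call was lost in 16 for Rpl34, 6 for Rps27l and 5 for Rpl9. The others were Rpl10a, Rpl5, Rps9 and Rpl3, at 1.59 to 2.03. The count was 0 without 2i+LIF HP replicate 1, 0 with library totals in place of TMM scaling and 44 without both libraries that stood apart. In the same libraries the 8 pluripotency markers summed to 1334 to 1933 CPM with 2i+LIF and 2031 to 2238 with LIF, and the 5 markers of 2-cell-like cells to 9.267 to 13.94 and 0 to 3.695 (Tcstv3 at 0). The percent of entries assigned to no annotated gene was 17.2 to 21.5 and 8.46 to 16.7, and that of mitochondrial counts 1.25 to 3.05 and 3.48 to 9.35. None of these ranges overlapped, and their part in the result was not tested. Of the pluripotency markers, Sox2 (means of 410 and 407.7 CPM) and Tfcp2l1 (397 and 376.1 CPM) were slightly lower with LIF, unlike their sum. Of 5 Myc and p53 genes outside the members tested in the same comparison, 2 were higher and 0 lower, with a median log2 fold change of 0.69. They were the p53 targets Mdm2, at 52.18 ± 17.41 CPM under 2i+LIF and 128.3 ± 23.04 CPM under LIF (SD, n = 3; log2 fold change 1.29), and Ccng1, with 11.99 ± 3.158 CPM under 2i+LIF and 162.6 ± 66.26 CPM under LIF (SD, n = 3; log2 fold change 3.77).

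Between LIF HP and CH+LIF HP, 0 members were called by edgeR and 1.47% of all genes, while 32 members had an unadjusted p under 0.05, DESeq2 called 5 and the count was 20 without the libraries that stood apart. The median was 0.98, and in 51 members all LIF libraries exceeded all CH+LIF libraries, as in 15.3% of all genes. Neural markers summed to 57.25 to 59.69 CPM in CH+LIF HP and 88.07 to 144.8 CPM in LIF HP, fibroblast markers to 11.03 to 20.56 and 7.39 to 9.791, and pluripotency markers to 1722 to 1925 and 2031 to 2238. The entries assigned to no gene were 16.71 to 22.9% and 8.46 to 16.69%, and alignments that were not unique 25.6 to 28.3% and 30.3 to 35.5%. These ranges did not overlap either, and their part was not tested. Single markers differed in direction by group mean, given for CH+LIF HP and then LIF HP. Tubb3 read 41.4 and 93.54 CPM and Nes 8.348 and 9.237 CPM, but Sox1 7.396 and 6.657 CPM and Pax6 1.634 and 1.508 CPM. Thy1 read 14.53 and 2.057 CPM, but Col1a1 1.793 and 6.761 CPM. Of the pluripotency markers, Sox2 (610.5 and 407.7 CPM) and Zfp42 (103.8 and 60 CPM) were lower in LIF HP and the rest higher. Rpl13a came nearest, with means of 305.4 and 1058 CPM (1.79, edgeR adjusted p = 0.06754). Between CH+LIF and 2i+LIF at HP, 0 members were called by edgeR and by DESeq2, 0 had an unadjusted p under 0.05, and 2.02% of all genes were called.

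At LP no member was called between any pair of media by edgeR or DESeq2. For CH+LIF against 2i+LIF, 0 had an unadjusted p under 0.05 and 0% of all genes were called, with a median of 0.64 that was 0.27 without the libraries that stood apart. For LIF against 2i+LIF, 4 had an unadjusted p under 0.05, 0.489% of all genes were called and the median was 0.08, or -0.28 without those libraries and -0.23 without LIF LP replicate 3. For LIF against CH+LIF, 3 did, 0.047% of all genes were called and the median was -0.57. In 13 members every LIF LP library lay under every CH+LIF LP library, as for 7.07% of all genes. Neural markers summed to 125 to 138 CPM in CH+LIF LP and 189.5 to 208.2 CPM in LIF LP. Pluripotency markers summed to 1513 to 1627 and 1755 to 2097, and 2-cell-like markers to 0 to 1.816 and 1.992 to 3.856. None of the 3 pairs overlapped, and their part was not tested. Of the pluripotency markers, Tfcp2l1 (means of 196.1 and 160.5 CPM) and Dppa5a (73.11 and 54.92 CPM) were lower in LIF LP. Shares of the summed member counts differed between media for 0 members at LP or HP by edgeR, with 0 to 5 at an unadjusted p under 0.05. Of all genes, 0, 0.122 and 0% were called by share at LP and 0.301, 2.45 and 1.21% at HP. From LP to HP, 0 members were called by share with 2i+LIF (1.15% of all genes, 5 members at an unadjusted p under 0.05) or with CH+LIF (0%, and 0 members).

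Against PO the members did not move in 1 direction. Of the 84 tested, 29.8% were called in LIF HP, 15.5% in 2i+LIF HP and 14.3% in LIF LP. Called members made up 7.14% in 2i+LIF LP, 3.57% in CH+LIF HP and 1.19% in CH+LIF LP. In LIF LP and 2i+LIF LP this was near the share of all genes given below, and in both CH+LIF groups under it. A joint test found a difference among the 7 groups for 50 of 84 members (22.6% of all genes), and among the 6 cultured groups alone for 28 (13.1%). The 6 comparisons share the PO libraries. Marker sums also differed from PO, where the 5 neural markers summed to 36.93 to 72.43 CPM. They summed to 189.5 to 208.2 CPM in LIF LP, 110.2 to 253.2 in 2i+LIF LP, 125 to 138 in CH+LIF LP and 88.07 to 144.8 in LIF HP, all above PO, and to 34.5 to 156.2 in 2i+LIF HP and 57.25 to 59.69 in CH+LIF HP, which overlapped it. The 8 pluripotency markers summed to 2986 to 3808 CPM in PO, above each cultured group (1334 to 2238 CPM) but 2i+LIF LP (1686 to 3058). Tfcp2l1 (1009 CPM), Dppa5a (508.9 CPM), Nanog, Esrrb and Zfp42 had their highest group mean in PO. Pou5f1 had its lowest there (29.21 CPM). Sox2 (498.5 CPM in PO) and Klf4 (348.2 CPM) were higher in some cultured groups, up to 870.4 and 470.2 CPM. Of the neural markers, Nes had its highest mean in PO (16.64 CPM). Mitochondrial counts were 7.55 to 39.1% in PO. They were lower in 2i+LIF HP (1.25 to 3.05%), 2i+LIF LP (0.21 to 4.62%) and CH+LIF LP (1.97 to 4.84%). Fibroblast markers summed to 14.12 to 21.44 CPM in PO, above 2i+LIF HP (2.875 to 10.36) and LIF HP (7.39 to 9.791). Those of 2-cell-like cells summed to 0 to 2.11 CPM in PO, under 2i+LIF HP (9.267 to 13.94) and CH+LIF HP (2.285 to 9.732). In the other groups these ranges overlapped PO. The part of any of these in the results was not tested. For LIF HP, 25 members were called where 12.3% of all genes were, 24 of them higher (7.1% of all genes) and 1 lower (5.17%). For 2i+LIF HP, 13 were called (10.6%), 9 higher (5.8%) and 4 lower (4.79%). For LIF LP, 12 were called (12%), 1 higher (5.84%) and 11 lower (6.11%). For 2i+LIF LP, 6 were called (5.06%), all lower (2.27%). For CH+LIF HP, 3 were called (5.82%), 2 higher (3.36%) and 1 lower (2.45%), and for CH+LIF LP 1 was called (8.31%), as higher (4.24%). Median log2 fold changes of the members were 1.12 in LIF HP, -0.13 and 0.18 in the other HP groups, -0.42 in LIF LP, -0.61 in 2i+LIF LP and 0.10 in CH+LIF LP. Without the libraries that stood apart those of CH+LIF HP and CH+LIF LP turned negative, at -0.18 and -0.29, as they did with the coding-length trend removed, at -0.09 and -0.13. PO replicate 2 carried much of these medians: without it they were 0.39 in 2i+LIF HP, 0.59 in CH+LIF HP, 0.51 in CH+LIF LP, -0.04 in LIF LP and -0.08 in 2i+LIF LP. Without 2i+LIF HP replicate 1 that of 2i+LIF HP was also positive, at 0.14, and without CH+LIF LP replicate 2 or 3 that of CH+LIF LP was negative, at -0.04 and -0.06. In LIF HP the median stayed positive in all 32 alternatives. Without both libraries that stood apart, 2i+LIF LP had 17 lower and 1 higher, LIF LP 33 lower and 1 higher, CH+LIF LP 14 lower and 1 higher, and 2i+LIF HP 23 lower and 10 higher. With the replicate number as a block, 2i+LIF LP had 13 members called in place of 6. By share of the summed member counts, edgeR called 1 member in 2i+LIF LP (0.536% of all genes; 7 with the block), 8 in LIF LP (3.05%), all lower, and 6 in 2i+LIF HP (2.62%), 2 higher and 4 lower. It called 18 in LIF HP, 5 higher and 13 lower, where 57.5% of all genes passed. It called 0 in CH+LIF LP (2.48%; 23 members at an unadjusted p under 0.05) and 0 in CH+LIF HP (0.564%; 24). Jointly, shares differed for 10 members over the 7 groups (34.2%) and for 0 over the cultured groups (15.9%).

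Rps2, a small-subunit protein of the mRNA entry channel (chr17:24718116-24721929, plus strand, overlapping Snhg9), was lower than PO in all 18 cultured libraries. It read 135.6, 216.8 and 216.6 CPM in PO. In 2i+LIF LP it read 39.97, 87.83 and 56.47 CPM, in CH+LIF LP 55.23, 76.87 and 113.9 CPM, and in LIF LP 31.4, 19.25 and 40.88 CPM. It read 47.87, 55.06 and 14.38 CPM in 2i+LIF HP, in CH+LIF HP 63.58, 80.62 and 69.3 CPM, and in LIF HP 53.08, 91.76 and 80.36 CPM. The fall from PO was called in 5 of the 6 comparisons, with log2 fold changes of -2.63 (SE 0.43) in LIF LP, -2.25 (SE 0.43) in 2i+LIF HP, -1.62 in 2i+LIF LP, -1.41 in CH+LIF HP and -1.34 in LIF HP. In CH+LIF LP it was -1.22 (edgeR adjusted p = 0.06377). The calls in LIF LP and 2i+LIF HP held under all 32 alternatives, while that in CH+LIF HP was lost in 9 and that in LIF HP in 6. In LIF HP, where most members exceeded PO, the share of Rps2 in the summed member counts fell by 3.00 on the log2 scale (SE 0.59, edgeR adjusted p = 0.003372).

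Rps27rt, the copy that is identical to Rps27 in its coding bases, went the other way. It read 10.02, 22.49 and 13.96 CPM in PO, 47.37, 62.41 and 52.9 CPM in LIF LP and 117.5, 141.6 and 173.1 CPM in LIF HP. It rose against PO in 5 of the 6 comparisons, with log2 fold changes of 3.19 (SE 0.52, edgeR adjusted p = 0.0004875) in LIF HP, 2.69 in 2i+LIF HP, 2.18 in CH+LIF HP, 1.86 in CH+LIF LP and 1.78 in LIF LP. In 2i+LIF LP, at 12.62, 45.21 and 72.69 CPM, its range overlapped PO (1.48, edgeR adjusted p = 0.08105). The calls at HP held under all 32 alternatives, and those in CH+LIF LP and LIF LP were lost in 3 each. Rps27 itself read 460.6, 2809 and 1443 CPM in PO and 2169, 3385 and 5608 CPM in LIF HP. It was called in none of the 6, with log2 fold changes from -1.01 to 1.24. Reads within the identical coding bases cannot be assigned to either gene, so the counts of this pair are uncertain.

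Rps3a1, which lies at the mRNA exit of the small subunit (chr3:86137940-86142702, minus strand), read 7.914, 10.2 and 8.226 CPM in PO. At HP it read 16.27, 43.61 and 155.3 CPM (2i+LIF), 52.55, 51.04 and 27.42 CPM (CH+LIF) and 18.55, 32.02 and 75.21 CPM (LIF). All 18 cultured libraries lay above PO. The change was called in the 3 HP groups, at log2 fold changes of 2.99 (SE 0.62), 2.30 (SE 0.61) and 2.21 (SE 0.61), and in no LP group, where edgeR adjusted p-values ran from 0.05524 to 0.1032. Of 32 alternatives the call in CH+LIF HP was lost in 5, and that in 2i+LIF HP in 1, without its replicate 3, where the log2 fold change was 1.74. Rps3a1 shared 71% of its transcript stretches with other genes.

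Members called lower than PO in 2i+LIF LP (6) and LIF LP (11) formed a further set, while CH+LIF LP had 0. The number called against PO was 0 in 2i+LIF LP without PO replicate 2, and 2 in LIF LP without LIF LP replicate 2. Rpl15, a large-subunit protein (chr14:18267823-18271391, minus strand, overlapping Nkiras1), read 31.65, 110.1 and 103 CPM in PO, 0.7012, 17.22 and 17.89 CPM in 2i+LIF LP and 9.914, 4.648 and 25.49 CPM in LIF LP. The log2 fold changes were -2.73 (SE 0.68, edgeR adjusted p = 0.02057) and -2.58 (SE 0.67, adjusted p = 0.01343). The lowest value rests on 1 count in 2i+LIF LP replicate 1. Rps23 read 337.1, 1773 and 902.4 CPM in PO and 79.24, 288.9 and 267.3 CPM in 2i+LIF LP (-2.24). Rps23 was also the member whose share fell in 2i+LIF LP, by 2.10 on the log2 scale (SE 0.46, edgeR adjusted p = 0.02668). Rpl34 read 129.3, 725.8 and 287.2 CPM in PO and 46.98, 110.7 and 83.87 CPM in 2i+LIF LP. It fell there (-2.24) and in LIF LP (-2.53). Rpl10, Rpl7a and Rps2 were the others called in both. In LIF LP, Rps4x (-2.54), Rps27a (-2.19), Rplp1 (-1.89), Rpl10a (-1.76) and Rpl11 (-1.72) were also called. In 2i+LIF LP the level call was lost in 5 of 32 alternatives for Rpl34, 3 for Rpl15 and 2 for Rps23, and the share call of Rps23 in 6 of 26. In LIF LP that of Rpl15 was lost in 2 of 32 and that of Rps4x in 0. Of these 11 lower members in LIF LP, 9 were among the 46 with over 50% shared sequence and 2 among the other 38.

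Most members called higher than PO were found in HP groups. In LIF HP, Rpl26 of the large subunit had means of 1497 CPM in PO and 8997 CPM in LIF HP (2.59 on the log2 scale, SE 0.53, edgeR adjusted p = 0.003555), and Rps25 had 1851 and 10840 CPM (2.55, SE 0.54, adjusted p = 0.004422). Rps20 read 2844, 7819 and 5516 CPM in PO and 19340, 31310 and 41880 CPM in LIF HP (2.52). Rps20, Rpl27a, Rpl26, Rpl14, Rpl13 and Rpl8 were among those also called higher in 2i+LIF HP, at 1.35 to 2.07. Rpl24 (-1.61) and Rpl28 (-1.59) of the large subunit, with Rpl7a (-1.91), were called lower there together with Rps2. These 4 made up 4.76% of the tested members, where 4.79% of all genes were called lower. The calls of Rpl24 and Rpl7a were lost in 6 of 32 alternatives each, and that of Rps20 in 2. Rps19, the gene most often affected in Diamond-Blackfan anaemia, read 410.4, 2966 and 1339 CPM in PO and 4503, 6014 and 12470 CPM in LIF HP (2.28).

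Of 10 paralogs of ribosomal proteins listed, 8 were found and 7 tested. Their identity to the parent gene over aligned coding bases was 100% for Rps27rt, 87.7% for Rpl36al, 85% for Rpl39l, 84.7% for Rpl10l, 67.5% for Rpl22l1, 61.9% for Rps27l and 48.3% for Rpl7l1. In LIF HP against LIF LP, Rps27l alone was called among these 7, where 9.96% of all genes were called and 5.33% were higher. Rps27l read 121.2, 192.5 and 296.3 CPM, then 416.4, 870.8 and 1140 CPM (log2 fold change 1.99). Rpl39l, known from the testis and from embryonic stem cells, read 17.94, 85.5 and 62.32 CPM in PO and 147.4, 253.7 and 299.8 CPM in LIF HP, and was called higher there (2.06). Its parent Rpl39 had means of 270 CPM in LIF LP and 1289 CPM in LIF HP (2.25, called), against 139.7 and 233.6 CPM for Rpl39l (0.74, not called). Rpl22l1, which can replace Rpl22, ranged from 6.709 CPM in 2i+LIF HP replicate 3 to 1386 CPM in LIF HP replicate 3. In LIF HP against LIF LP its log2 fold change of 2.02 (SE 0.82, edgeR adjusted p = 0.1117) did not pass, whereas Rpl22 did at 1.57 (SE 0.51, adjusted p = 0.04887).

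Other genes of ribosome production were read in LIF HP against LIF LP, where 9.96% of all genes were called and 5.33% were called higher. Of the cytosolic ribosomal proteins with other names, Fau passed (678.3 ± 129.3 to 2040 ± 884.6 CPM, SD, n = 3; log2 fold change 1.59). Rack1 (means of 1978 and 4882 CPM) did not. Of 15 translation factors and other mRNAs known for a pyrimidine tract, 4 were higher and 0 lower (median 0.92), led by Naca (1.98), of the complex that meets nascent chains, and the elongation factor subunit Eef1b2 (1.82). Of 36 ribosome biogenesis factors, 1 was higher, the small nucleolar particle protein Nop10 (1.99), and 1 lower, the processing factor Utp20 (-1.47), with a median of 0.23. Of 14 genes of RNA polymerase I, which makes ribosomal RNA, 0 were called by edgeR, with a median of 0.51. Of 12 genes of mTORC1 control, 1 was lower, the S6 kinase gene Rps6kb1 (-1.35), and of 5 Myc and p53 genes 1 was higher, the p53 target Cdkn1a (152.9 ± 15.95 to 431.6 ± 64.29 CPM, SD, n = 3). Among 75 mitochondrial ribosomal proteins, which make up a separate ribosome, 19 were higher and 1 lower (median 0.86), among them Mrpl33 (2.29).

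Libraries differed in member profile as well as in sum. Median coefficients of variation of the members within a group ran from 26.6 to 61.3%, against 17.6 to 38.3% for other genes of at least 50 CPM. LIF HP replicate 3 held the highest CPM of 58 members. 2i+LIF LP replicate 1 held the lowest CPM of 46 members and the lowest share of 30, and 2i+LIF HP replicate 3 the lowest share of 21. In these 2 libraries some members had few counts, such as Rpl22l1 with 12 and 7, Rps13 with 34 and 38, Rps16 with 18 and 95, Rpl24 with 89 and 36 and Rpl15 with 1 and 8. Rps20 in the same libraries read 9348 and 39720 CPM, the latter second only to the 41880 CPM of LIF HP replicate 3.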

How the data were processed

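For each library the authors deposited raw whole-number counts by Ensembl gene ID. The submitters' processing notes name bcl2fastq, STAR 2.6.0a, HTSeq and build mm10; annotation and strand setting are not given in the sources used here, so overlapping genes (24 members) are uncertain. GENCODE M21 (GRCm38) gave symbols and positions for 31011 of 31053 IDs. The members and all lists were chosen with earlier results of these data known.

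All 21 libraries entered 1 quasi-likelihood fit in edgeR 4.0.16 (R 4.3.3), with a coefficient per group, TMM scaling, filterByExpr (10643 genes kept) and 14 residual degrees of freedom. Tests were two-sided in 15 contrasts, each with Benjamini-Hochberg adjustment. Standard errors are the absolute log2 fold change over the square root of F. A further fit took summed member counts as library size. Steps were tested on simulated data. Alternatives used DESeq2 1.42.0 and limma 3.58.1 (voom with quality weights). Full statistics are given for up to 3 members each way per contrast and up to 2 genes per list. Same-numbered libraries deviated together in all 3 pairs only for 2i+LIF LP with PO (correlations 0.397, 0.345 and 0.179); the labels state no pairing. A count interval or limit covers counting error only.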

Additional observations from a re-analysis of the deposited data

Results flagged for a closer look

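The 9 ribosomal protein symbols with -ps entered no comparison, yet they held 3820 counts over all 21 libraries, 48 to 375 in each, which is above the 3 that a count of 0 allows. They came to 0.0324 to 0.142% of the members' counts. Whether these reads came from the pseudogenes or from the members they copy was not tested.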

How the results depend on the processing

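None of the called members' changes recomputed gene by gene reversed under an alternative; the other genes named were not recomputed. In LIF HP against LIF LP no member was called lower by level in any alternative. Unless said, numbers are members called, without the share of all genes called under the same setting. A count that moved can thus go with a change over all genes, and the cause was not tested. DESeq2 gave 66 in LIF HP against LIF LP, 22 in LIF HP against 2i+LIF HP, 5 against CH+LIF HP, 2 in 2i+LIF HP against 2i+LIF LP, and 13, 4 and 9 for 2i+LIF LP, CH+LIF LP and CH+LIF HP against PO; its joint test over the cultured groups was not run. Testing all genes with a count gave 33, 14 and 2 for LIF HP against 2i+LIF HP, LIF HP against CH+LIF HP and 2i+LIF HP against LP, 23, 9, 25, 26 and 8 for 2i+LIF LP, CH+LIF LP, LIF LP, 2i+LIF HP and CH+LIF HP against PO, and 64 jointly over cultured groups; by share 2 in LIF HP against LIF LP and, against PO, 4, 2, 10, 1 and 11 for 2i+LIF LP, CH+LIF LP, 2i+LIF HP, CH+LIF HP and LIF HP. Removing the coding-length trend (chosen after seeing the data) gave 18 in LIF HP against LIF LP, 18, 6, 23, 5 and 11 for 2i+LIF LP, CH+LIF LP, LIF LP, CH+LIF HP and LIF HP against PO, and 13 jointly over cultured groups. Library totals gave 13 in LIF HP against LIF LP, 0 against 2i+LIF HP, 2 and 10 for CH+LIF LP and LIF HP against PO, and 12 and 2 jointly over 7 and over the cultured groups. Voom with quality weights gave 78, 44 and 49 for LIF HP against LIF LP, 2i+LIF HP and CH+LIF HP, 1 for LIF LP against CH+LIF LP, 24, 17, 40, 29, 23 and 50 for 2i+LIF LP, CH+LIF LP, LIF LP, 2i+LIF HP, CH+LIF HP and LIF HP against PO, and 77 and 72 jointly. Fitting only the groups compared gave 77, 22 and 30 for LIF HP against LIF LP, 2i+LIF HP and CH+LIF HP, and 0, 2, 7, 3 and 9 for 2i+LIF LP, CH+LIF LP, LIF LP, 2i+LIF HP and LIF HP against PO; by share 14, 1 and 7 for LIF HP against LIF LP, CH+LIF HP and PO, and 0 for 2i+LIF LP, LIF LP and 2i+LIF HP against PO. Without both libraries that stood apart, LIF HP had 77, 44 and 20 against LIF LP, 2i+LIF HP and CH+LIF HP, the PO comparisons had 18, 15, 34, 33 and 12 for 2i+LIF LP, CH+LIF LP, LIF LP, 2i+LIF HP and CH+LIF HP, and the cultured groups 63 jointly; by share 9, 8 and 1, then 3, 25, 28 and 3 for CH+LIF LP, LIF LP, 2i+LIF HP and CH+LIF HP against PO, and 26 and 2 jointly.

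With the replicate number as a block, LIF HP had 63, 25 and 1 against LIF LP, 2i+LIF HP and CH+LIF HP, the PO comparisons 13, 3, 8 and 39 for 2i+LIF LP, CH+LIF LP, CH+LIF HP and LIF HP, and the cultured groups 59 jointly. By share the block gave 2 and 1 for LIF HP against 2i+LIF HP and CH+LIF HP, 7, 5, 15, 17 and 2 for 2i+LIF LP, CH+LIF LP, LIF LP, 2i+LIF HP and CH+LIF HP against PO, and 21 and 1 jointly. Outside 2i+LIF LP against PO the libraries share only a number.

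Leaving out 1 library at a time gave 6 (without LIF HP replicate 3) to 65 (without 2i+LIF LP replicate 1) for LIF HP against LIF LP, 0 to 29 against 2i+LIF HP, 0 to 3 against CH+LIF HP and 0 to 2 for 2i+LIF HP against LP. Against PO it gave 0 (without PO replicate 2) to 26 (without PO replicate 1) for 2i+LIF LP, 0 to 5 for CH+LIF LP, 2 (without LIF LP replicate 2) to 24 (without PO replicate 1) for LIF LP, 2 (without 2i+LIF HP replicate 3) to 21 (without PO replicate 1) for 2i+LIF HP, 1 to 7 for CH+LIF HP and 9 (without LIF HP replicate 3) to 37 for LIF HP. Jointly it gave 13 to 62 over 7 groups and 0 to 53 over the cultured groups. By share it gave 0 to 7 for LIF HP against LIF LP, 0 to 2 against 2i+LIF HP, and 0 to 8, 0 to 3, 0 to 14, 0 to 21, 0 to 2 and 5 to 23 for 2i+LIF LP, CH+LIF LP, LIF LP, 2i+LIF HP, CH+LIF HP and LIF HP against PO, with 4 to 21 and 0 to 4 jointly. A member with few counts, such as Rpl15, is limited by depth: at 1132126 gene counts a level of 1 CPM is about 1 count.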
